A study of Mus musculus with 36 samples.

Results

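The response of mouse liver RNA to DMOG was measured in 12 libraries of the 36 in the series, 6 from mice given DMOG and 6 from mice given PBS (phosphate-buffered saline). The members were chosen by treatment and tissue label from the sample titles. All 12 are labelled retina, but they hold a liver transcriptome: Hnf4a, a transcription factor of hepatocytes, ranged from 66.3 to 92.1 FPKM (fragments scaled to transcript length and to the mapped fragments of the library) over the 12, whereas Sag, the arrestin of rod photoreceptors, ranged from 0.0889 to 0.473 FPKM and Crx, a photoreceptor transcription factor, was at 0. Afp, the alpha-fetoprotein gene, which liver expresses most strongly around birth, was at 4062 FPKM or more in each library, while the liver genes Alb, Ahsg and Mup1 were listed at 0 in all 12 and are not used. The strain is C57BL/6 in every group. A further 6 libraries under the same tissue label came from roxadustat treatment and are used for 1 direct comparison with DMOG. Dose, time of collection, age and sex are not given in the sources used here, and nothing there says that replicates are separate animals, so the spread behind each p-value is that of libraries and may be technical.

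DMOG (dimethyloxalylglycine) is a cell-permeable precursor of an analog of 2-oxoglutarate, the cosubstrate of a large family of iron-dependent dioxygenases. Among these enzymes are the prolyl hydroxylases encoded by Egln1, Egln2 and Egln3, which mark the alpha subunits of the hypoxia-inducible factors (HIF) for recognition by the VHL ubiquitin ligase, and the asparaginyl hydroxylase encoded by Hif1an, which limits their binding to coactivators. When hydroxylation is blocked, HIF alpha subunits accumulate in oxygenated cells, pair with ARNT and bind hypoxia response elements. In hepatocytes the HIF-2 branch is known for erythropoietin and iron genes and for effects on lipid metabolism, and the HIF-1 branch for glycolysis.

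A hypoxia response element carries the core ACGTG or, less often, GCGTG. Windows of the promoters of genes that were higher with DMOG are shown because they hold this core in the 250 bases before the start of transcription, at distances that differ between the genes: the windows end close to the start for Ankrd37 and lie near the far end of the 250 bases for Egln3. They were taken from RefSeq (GRCm38.p6, bases before the annotated start only, 5′ to 3′ on the strand of the gene). Capitals mark every match to either form on either strand.
Ankrd37: gcacatgtcagtgtttgggtACGTGa
Egln3: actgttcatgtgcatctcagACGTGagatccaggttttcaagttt
P4ha2: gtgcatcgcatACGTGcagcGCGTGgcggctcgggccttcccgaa
Bnip3: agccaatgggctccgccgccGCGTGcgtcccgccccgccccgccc
Ero1l: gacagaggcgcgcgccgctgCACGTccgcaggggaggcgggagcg
Pfkl: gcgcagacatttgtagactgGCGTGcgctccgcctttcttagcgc
The Ankrd37 window lies at chr8:45999851-45999876, minus strand, that of Egln3 at chr12:54204079-54204123, minus strand, and that of P4ha2 at chr11:54100835-54100879, plus strand. The Bnip3 window lies at chr7:138909517-138909561, minus strand, that of Ero1l (RefSeq symbol Ero1a) at chr14:45318611-45318655, minus strand, and that of Pfkl at chr10:78009882-78009926, minus strand. Of the 20 genes with the smallest adjusted p without DMOG replicate 5, among those that were higher and had a promoter in the table, 13 held the core in their windows of 300 bases. O3far1, Gpi1, Cdkn1a, Gys1, Adm2 and Aldoa had no match in these windows, which says nothing of elements elsewhere, and the hypoxia-responsive enhancers of Epo are known to lie outside its promoter. The core is common: 43.8% of 27025 promoters of this length hold it, and 61.8% of those of the 10067 tested genes that had one in the table. The count of 13 in 20 is near the share of the tested genes and says nothing particular of the genes that were higher. ACGTG is also part of the E-box CACGTG, and GCGTG is also the core of the xenobiotic response element. A match is therefore a description of the sequence and not a binding site. Without DMOG replicate 5, the core was held by 60.8% of 1741 promoters of genes called higher and 61.9% of 1848 called lower. At a log2 fold change of at least 1 in size, it was held by 54.4% of 182 higher and 46.1% of 128 lower. ACGTG alone was held by 59 of those 182 and 23 of those 128. These shares are a description with no test, because under 80% of the 12657 genes tested had a promoter in the table.

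DMOG replicate 5 stood apart from its group. Over the 404 genes called with a log2 fold change of at least 1 in size when DMOG replicate 5 was left out, the median difference from the PBS mean, signed so that the direction of the other DMOG libraries is positive, was 1.33, 1.07, 1.42, 1.34 and 1.30 in DMOG replicates 1, 2, 3, 4 and 6 and -0.02 in replicate 5. The genes and their signs were chosen from those 5 other libraries, so their medians are high by choice. Replicate 5 took no part in that choice. On a scale on which 0 is the PBS mean and 1 the mean of the other 5 DMOG libraries, DMOG replicate 5 had a median position of -0.04 over the 240 genes that were higher and 0.03 over the 164 that were lower. It lay within the range of the 6 PBS libraries for 151 of the 240 (62.9%) and for 131 of the 164 (79.9%). Its log2 values correlated at 0.938 to 0.966 with the other DMOG libraries and at 0.978 to 0.991 with the PBS libraries over the 12657 genes tested, a description with no test. The labels name it as DMOG. It is kept in the fits described as having all 6 libraries. Of the 159 genes of the naming rule that are named here, 138 were called with all 6 libraries, and all 138 were also called without replicate 5, with log2 fold changes 1.07 to 1.3 times as large, while 18 more were called only without it.

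With all 6 DMOG libraries, 2526 of 12657 genes tested (20.0%) differed from PBS, 1046 higher (8.26%) and 1480 lower (11.7%). Here and below a gene is called when its p from limma on log2(FPKM + 0.5), adjusted over all 12657 genes, is under 0.05. Without DMOG replicate 5, 4489 genes (35.5%) were called, 2194 higher (17.3%) and 2295 lower (18.1%). Of the 2526 genes, 2521 were also called without that library, all in the same direction, and 1968 were called only without it. The 5 other DMOG libraries all lay above the 6 PBS libraries for 1113 genes (8.79%) and all below them for 1223 (9.66%), and all 6 lay above for 168 (1.33%) and below for 183 (1.45%). The median log2 fold change over all genes was 0.01. Values in brackets after a gene are log2 fold changes ± SE, DMOG over PBS, with all 6 DMOG libraries unless replicate 5 is said to be left out. The balance of directions depended on scaling: with each library set to an equal FPKM total, 17.9% of 3271 called genes were higher in place of 41.4%, and without DMOG replicate 5 27.2% of 4535 in place of 48.9%.

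Depth is unknown, because the files hold FPKM and no read counts. The summed FPKM ranged from 433021 to 540324 with DMOG and from 448552 to 498703 with PBS, and 16049 to 16389 genes were above 0 with DMOG and 16141 to 16329 with PBS. Xist was high and Y-linked genes near 0 in 4 of 6 libraries with DMOG, 1 of 6 with roxadustat and 3 of 6 with PBS, and the reverse held in the others. In bulk RNA, fewer cells of a type and less RNA per cell cannot be told apart.

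**Figure D1:**
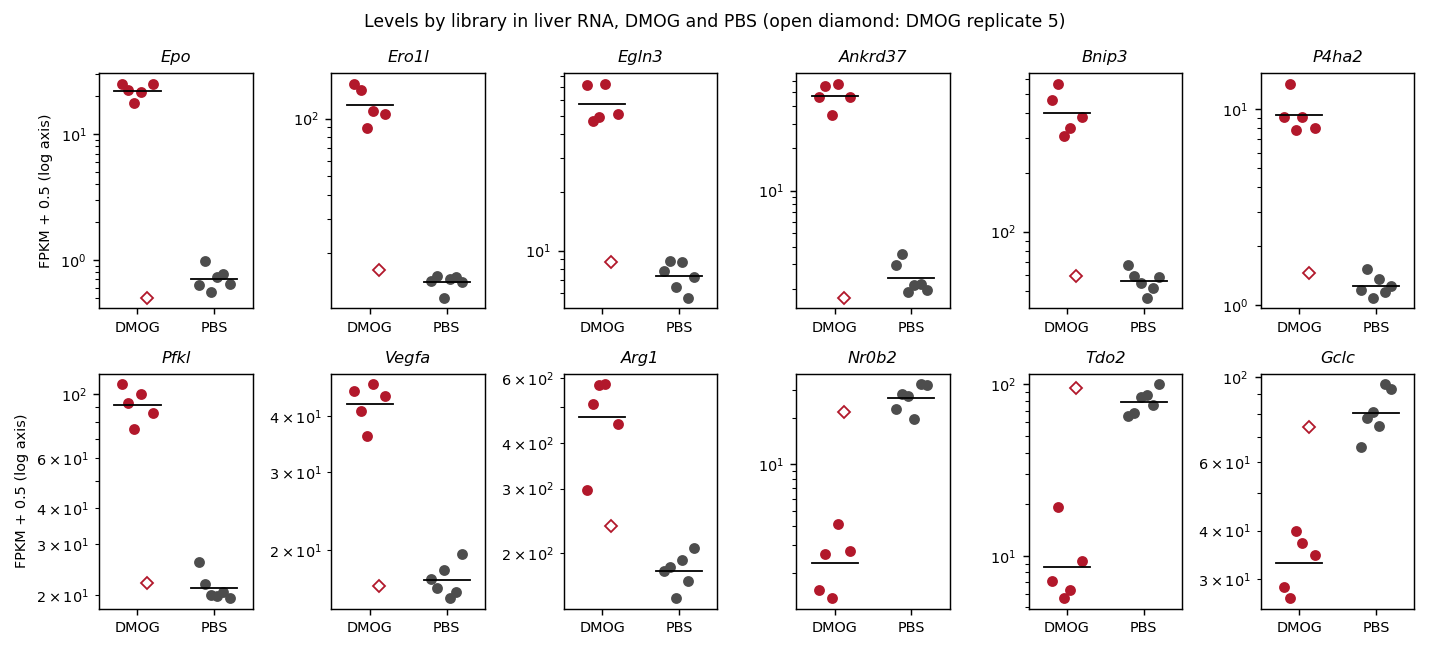
Levels of 12 genes in each of the 6 DMOG and 6 PBS libraries, as FPKM + 0.5 on a log axis. Each point is a library, the open diamond is DMOG replicate 5, and the line is the geometric mean of the group, without that library for DMOG. The 5 filled DMOG points lie above every PBS point for Epo, Ero1l and the other HIF targets and below every PBS point for Nr0b2, Tdo2 and Gclc, while the diamond lies near the PBS points.

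The oxygen-sensing machinery itself changed with DMOG. Of 9 members tested, 5 were higher and none lower with all 6 libraries, with a median log2 fold change of 0.57 for the list against 0.01 for all genes. Egln3, the prolyl hydroxylase most strongly induced by HIF, had 46.4, 50.6 and 72.5 FPKM at the lowest, median and highest of DMOG replicates 1, 2, 3, 4 and 6 and 8.23 FPKM in DMOG replicate 5, against 5.19, 7.05 and 8.29 FPKM in PBS. The 5 libraries lay clear of PBS, and replicate 5 fell within the PBS range. Its log2 fold change was 2.51 ± 0.36 (SE, adjusted p = 0.000792) with all 6 and 2.96 ± 0.13 (adjusted p = 2.92e-11) without replicate 5. Egln1, the main oxygen sensor, had 18.3, 21.7 and 27.1 FPKM in the 5 libraries and 9.40 in replicate 5, against 7.38, 8.18 and 9.44 in PBS, a log2 fold change of 1.18 ± 0.17 (adjusted p = 0.000792). Vhl (0.57 ± 0.11), which encodes the recognition subunit of the ubiquitin ligase, Arnt (0.61 ± 0.13), the shared partner of the alpha subunits, and Cited2 (1.49 ± 0.31), which competes with HIF for its coactivators, rose as well. Egln2, whose levels were 19.6 to 25.6 FPKM in the 5 DMOG libraries and 21.9 to 29.5 FPKM in PBS, and Hif1an, at 6.16 to 6.89 and 6.20 to 7.19 FPKM, were called in neither fit. Neither was Epas1, which encodes HIF-2 alpha, with a log2 fold change of -0.21 ± 0.13 without replicate 5 (adjusted p = 0.195). Hif1a was lower only without replicate 5, at -0.24 ± 0.08 (adjusted p = 0.021), and these are levels of RNA, not of the proteins that the hydroxylases act on.

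Epo, the gene of the hormone erythropoietin, was close to the edge of detection with PBS. It had 17.2, 22.0 and 24.6 FPKM at the lowest, median and highest of the 5 DMOG libraries and was listed at 0 in DMOG replicate 5, against 0.0584, 0.189 and 0.486 FPKM in PBS. The 5 libraries were far above all PBS libraries, and replicate 5 was below them. The log2 fold change was 4.06 ± 0.70 (adjusted p = 0.00117) with all 6 libraries and 4.97 ± 0.19 (adjusted p = 1.89e-11) without replicate 5, on a scale that understates the change of a gene this low. Of the 23 erythropoietin and iron genes tested, 7 were higher and 2 lower with all 6, and 9 and 3 without replicate 5. Hamp, which encodes hepcidin, the hormone that closes iron export, varied widely among the DMOG libraries, at 1.801, 54.7 and 65.5 FPKM in the 5 and 4.85 in replicate 5, against 0.590, 1.07 and 3.13 in PBS. DMOG replicate 2, at 1.801 FPKM, lay inside the PBS range, so the groups overlapped although Hamp was called (3.64 ± 0.85, adjusted p = 0.0062). Fam132b, which encodes erythroferrone, a suppressor of hepcidin known from erythroblasts, had 1.30 to 3.06 FPKM in the 5 DMOG libraries, 0.338 in replicate 5 and 0.128 to 0.304 in PBS, with no overlap in any of the 6 (1.48 ± 0.26, adjusted p = 0.00123). Slc39a14, an importer of zinc and iron, had 102 to 149 FPKM in the 5 DMOG libraries, 74.7 in replicate 5 and 47.0 to 57.0 in PBS, and was also higher in all 6 (1.20 ± 0.14). Steap4, a metalloreductase, rose by 1.60 ± 0.33, and Steap3, the ferrireductase of transferrin-bound iron, fell (-0.96 ± 0.18, adjusted p = 0.00211). Tfrc, the transferrin receptor, and Slc40a1, the iron exporter ferroportin, were called in neither fit. None of the 18 erythroid cell markers was called with all 6, and Gata1 was the one called without replicate 5 (0.56 ± 0.21, adjusted p = 0.0451).

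Most HIF targets of mitochondria and redox balance rose. Of 12 tested, 10 were higher and none lower in either fit, with a median log2 fold change of 1.11 with all 6 and 1.31 without replicate 5. Bnip3, which encodes a receptor for mitophagy, had 307, 385 and 565 FPKM in the 5 DMOG libraries and 59.2 in replicate 5, against 45.5, 56.0 and 66.8 in PBS (2.39 ± 0.36, adjusted p = 0.000792). The 5 libraries were separate from PBS and replicate 5 was inside the PBS range. Ero1l, the oxidase that renews disulfide bonds in the endoplasmic reticulum, had 88.7, 109 and 151 FPKM in the 5 libraries, 15.7 in replicate 5 and 11.1, 13.9 and 14.6 in PBS, and was above PBS in all 6 (2.59 ± 0.37, adjusted p = 0.000792). Fam162a, a HIF target of the mitochondrial membrane, had 138 to 199 FPKM, 41.6 in replicate 5 and 28.1 to 39.8 in PBS, also with no overlap in the 6 (1.99 ± 0.27). Bnip3l (1.07 ± 0.20), the paralog of Bnip3, and Higd1a (1.15 ± 0.17), a factor that associates with respiratory complexes, rose too. Cox4i2 and Narf were called in neither fit.

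Signalling and transcription targets showed the same pattern, with 11 of 14 higher and none lower with all 6 and 12 without replicate 5. Ankrd37, a small ankyrin-repeat gene used as a hypoxia reporter, had 33.9, 46.1 and 56.9 FPKM in the 5 DMOG libraries and 1.23 in replicate 5, against 1.41, 1.65 and 3.07 in PBS. Replicate 5 was below every PBS library. The log2 fold change was 3.52 ± 0.61 (adjusted p = 0.0012) with all 6 and 4.31 ± 0.18 without replicate 5. Ndrg1 (1.56 ± 0.26), a stress-responsive gene, Ddit4 (1.37 ± 0.27), which encodes an inhibitor of mTORC1, and the histone demethylase genes Kdm3a (0.73 ± 0.14) and Kdm4b (0.72 ± 0.12) rose. Kdm3a spanned a narrow 10.9 to 11.9 FPKM in the 5 DMOG libraries, with 5.72 in replicate 5 and 4.90 to 6.77 in PBS. Bhlhe40, a transcriptional repressor that also acts in the clock, was higher only without replicate 5 (0.82 ± 0.11, adjusted p = 2.67e-05).

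Of 14 collagen and matrix genes tested, 8 were higher and 1 lower with all 6, and 9 and 2 without replicate 5. The collagen prolyl hydroxylases, themselves 2-oxoglutarate dioxygenases, were among them: P4ha2 had 7.34, 8.55 and 12.9 FPKM in the 5 DMOG libraries, 0.959 in replicate 5 and 0.594, 0.729 and 1.02 in PBS (2.44 ± 0.35, adjusted p = 0.000792), and P4ha1 rose by 1.30 ± 0.22. The lysyl hydroxylase gene Plod2 (0.58 ± 0.14) and the lysyl oxidase genes Lox (0.46 ± 0.12) and Loxl2 (0.51 ± 0.11), which crosslink collagen, rose by less, while Loxl4 fell and Loxl1 was lower only without replicate 5 (-0.27 ± 0.10). The fibrillar collagen genes Col1a1, Col1a2 and Col3a1, tested as stellate cell and fibroblast markers, were called in neither fit.

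Vascular signals were mixed: 6 of 21 were higher and 1 lower with all 6, and 8 and 2 without replicate 5, and the median of the list was 0.16. Vegfa, the principal endothelial growth factor, had 35.7, 43.9 and 46.7 FPKM in the 5 DMOG libraries and 16.1 in replicate 5, against 15.1, 16.3 and 19.1 in PBS (1.09 ± 0.19, adjusted p = 0.00128). The receptor gene Flt1 rose by 0.52 ± 0.12, and Kdr and Nrp1, which encode its other receptors, were called in neither fit. Efna1, an ephrin ligand, had 91.4 to 218 FPKM in the 5 DMOG libraries, 32.4 in replicate 5 and 16.4 to 30.9 in PBS and was higher in all 6 (2.38 ± 0.32, adjusted p = 0.000792), whereas its receptor gene Epha2 fell (-0.55 ± 0.15, adjusted p = 0.0132). Adm2, which encodes a peptide of the adrenomedullin family, had 3.05, 3.64 and 5.75 FPKM, 0.181 in replicate 5 and 0.0973, 0.193 and 0.371 in PBS (2.13 ± 0.35). Apln, the apelin gene, rose by 1.74 ± 0.33, and Adm was called in neither fit. Vegfc was lower and Vegfb higher only without replicate 5 (-0.30 ± 0.09 and 0.32 ± 0.12).

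**Figure D2:**
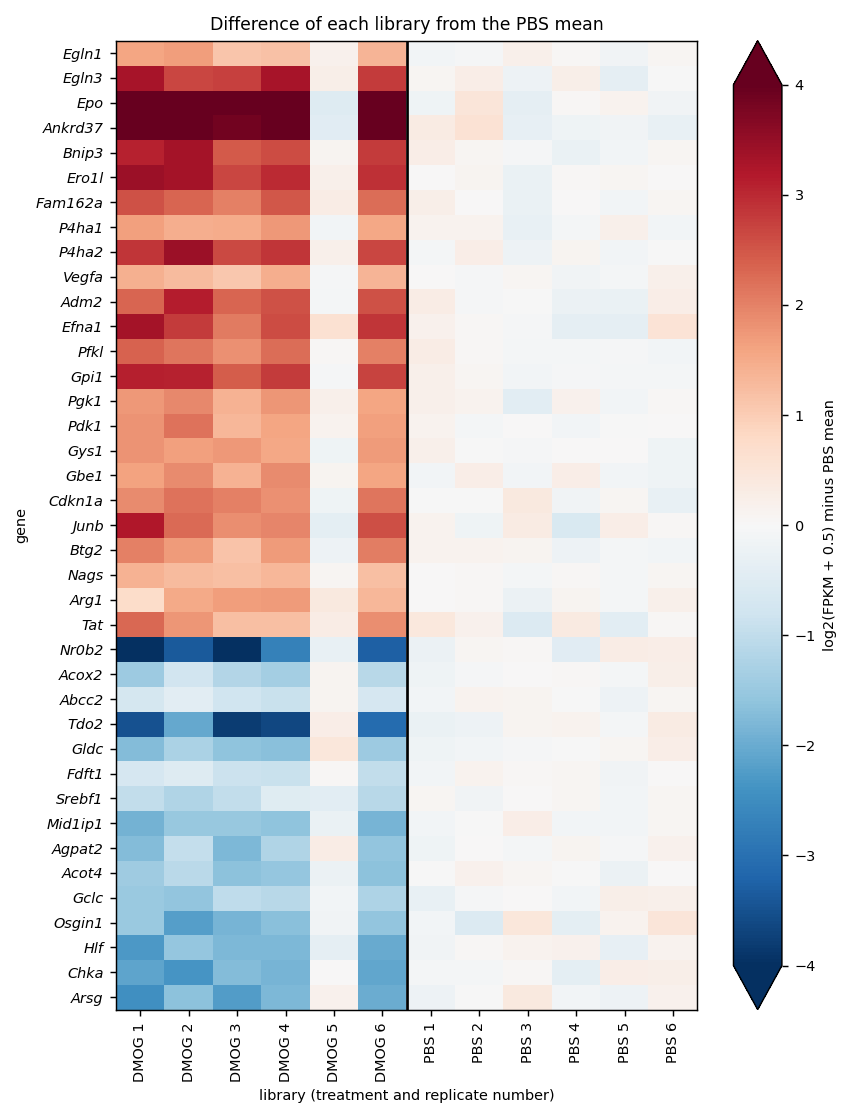
Difference of each DMOG and PBS library from the PBS mean in log2(FPKM + 0.5) for 39 genes named in the text, red higher and blue lower, with colours at their limit beyond 4. DMOG replicates 1, 2, 3, 4 and 6 share the same pattern of red and blue, and the column of DMOG replicate 5 resembles the 6 PBS columns.

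Genes of glycolysis, which splits glucose to pyruvate, were mostly higher. Of 25 genes tested, 14 were higher and none lower with all 6, and 17 higher and 4 lower without replicate 5, when the median log2 fold change was 1.13. Gpi1, the isomerase of glucose 6-phosphate, had 355, 460.2 and 568 FPKM in the 5 DMOG libraries and 62.5 in replicate 5, against 61.1, 62.9 and 76.0 in PBS (2.34 ± 0.37, adjusted p = 0.000959). Pfkl, the liver phosphofructokinase, had 75.1, 92.9 and 108 FPKM, 21.4 in replicate 5 and 18.99, 19.7 and 25.6 in PBS (1.78 ± 0.27, adjusted p = 0.000792). Both separated the 5 libraries from PBS and placed replicate 5 within the PBS range. Pgk1 (1.43 ± 0.21), Pgam1 (1.40 ± 0.22), Tpi1 (1.03 ± 0.17) and Gapdh (0.97 ± 0.17), enzymes further down the pathway, rose. Pkm2, the pyruvate kinase gene of most tissues, was higher only without replicate 5 (1.07 ± 0.21, adjusted p = 0.000855), and Pklr, the pyruvate kinase gene of liver, Ldhb and Pfkfb1 were lower only without it.

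Transport and use of glucose shifted alongside. The transporter gene Slc2a1, which encodes GLUT1, had 14.8 to 22.0 FPKM in the 5 DMOG libraries, 6.11 in replicate 5 and 5.49 to 7.90 in PBS (1.16 ± 0.22), whereas Slc2a2, the GLUT2 gene of hepatocytes, had 42.8 to 122, 153 and 123 to 159.8 FPKM in the same libraries (-0.94 ± 0.24, adjusted p = 0.0118). The lactate transporter genes Slc16a1 (0.79 ± 0.12) and Slc16a3 (1.36 ± 0.35) and their chaperone Bsg (0.85 ± 0.18) rose. Pdk1 (1.45 ± 0.22, adjusted p = 0.000792), Pdk2 (0.90 ± 0.25) and Pdk3 (0.59 ± 0.14), kinases that switch off pyruvate dehydrogenase, rose, and Pdp2, a phosphatase that switches it on, fell (-0.46 ± 0.10). Pdk1 was above PBS in all 6 DMOG libraries, at 26.1 to 47.4 FPKM in 5 and 11.3 in replicate 5, against 9.43 to 11.2 in PBS. Over the 30 genes of pyruvate oxidation and the TCA cycle the median was 0.05, and -0.05 with equal totals, so no direction holds for the list. None of the 42 oxidative phosphorylation genes was called with all 6, and without replicate 5 Cycs and Cox5a were higher, against none higher and 3 lower with equal totals.

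Part of the genes of glycogen storage rose, with 10 of 20 higher and 1 lower in both fits, and 6 and 1 with all 6 and equal totals. Gys1, the glycogen synthase of muscle and other tissues, had 5.40, 6.06 and 6.44 FPKM in the 5 DMOG libraries, 1.29 in replicate 5 and 1.26, 1.497 and 1.795 in PBS (1.38 ± 0.24, adjusted p = 0.00128). Gbe1, the branching enzyme (1.41 ± 0.22), Ugp2, which makes UDP-glucose (0.83 ± 0.15), and Ppp1r3g, which targets a phosphatase to glycogen (1.55 ± 0.29), rose. Gys2, the liver synthase, and Pygl, the liver phosphorylase, were called in neither fit.

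Genes of gluconeogenesis and insulin action went both ways, 6 higher and 4 lower of 21 with all 6, and 7 and 4 without replicate 5. Pck1, which commits carbon to glucose, had 557 to 1078 FPKM in the 5 DMOG libraries, 489 in replicate 5 and 301 to 479.9 in PBS and was higher in all 6 (0.91 ± 0.20, adjusted p = 0.00422). Irs2, an adaptor of the insulin receptor, rose (1.31 ± 0.19) while its paralog Irs1 fell (-0.71 ± 0.12). Ppargc1a, a coactivator of gluconeogenic and mitochondrial genes, rose by 0.68 ± 0.15, and G6pc was called in neither fit. Igfbp1, a secreted binder of insulin-like growth factors and a known HIF target, had 561, 1951 and 2103 FPKM in the 5 DMOG libraries and 856 in replicate 5, against 237, 505 and 619.7 in PBS. The lowest of the 5 lay within the PBS range, replicate 5 lay above it, and Igfbp1 was called (1.56 ± 0.32, adjusted p = 0.00271). Igfals, which stabilises circulating IGF complexes, fell (-1.17 ± 0.20 without replicate 5, adjusted p = 0.00509 with all 6), and Igf1 and Igf2 were called in neither fit.

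**Figure D3:**
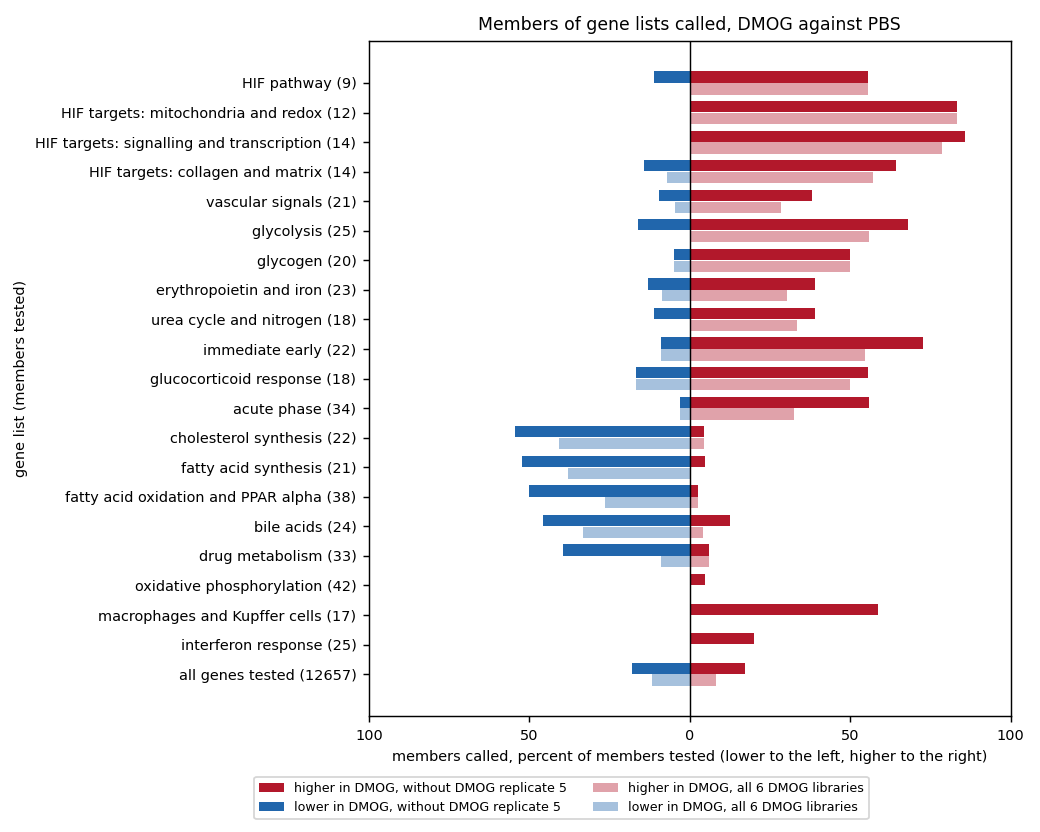
Percent of tested members of 20 gene lists, and of all genes tested, that were called lower (blue, to the left) or higher (red, to the right) in DMOG than in PBS, without DMOG replicate 5 (dark bars) and with all 6 DMOG libraries (pale bars). The HIF target lists, glycolysis and glycogen lie to the right and the cholesterol, fatty acid and bile acid lists to the left, beyond the bars of all genes at 17.3% higher and 18.1% lower without that library.

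Many genes of cholesterol synthesis fell. With all 6 DMOG libraries 9 of 22 genes were lower and 1, Pmvk, was higher, and without replicate 5 12 were lower, with a median log2 fold change of -0.48 against 0.02 for all genes. Fdft1, which encodes squalene synthase, had 18.5, 20.3 and 25.8 FPKM in the 5 DMOG libraries and 38.1 in replicate 5, against 33.1, 37.8 and 40.7 in PBS (-0.64 ± 0.13, adjusted p = 0.00254). The 5 libraries were all below PBS, and replicate 5 lay within the PBS range. The 12 regulators of this pathway went both ways, 4 higher and 5 lower with all 6, and 4 and 6 without replicate 5. Srebf1 (-0.87 ± 0.15), Srebf2 (-0.53 ± 0.09) and Scap (-0.67 ± 0.17), the transcription factors and their escort, fell. Insig1 (1.17 ± 0.20, adjusted p = 0.00108) and Insig2 (0.62 ± 0.15), which hold them in the endoplasmic reticulum, rose. Mbtps2, which encodes a protease that activates these factors, was also higher. It had 3.15 to 3.86 FPKM in the 5 DMOG libraries, 2.66 in replicate 5 and 2.46 to 2.90 in PBS. Insig1 had 115 to 172 FPKM in the 5 DMOG libraries, 55.1 in replicate 5 and 44.1 to 66.2 in PBS. Srebf1 was below PBS in all 6, at 26.2 to 43.7 FPKM in 5 and 45.1 in replicate 5, against 56.0 to 64.7 in PBS.

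Called genes of fatty acid synthesis and of fatty acid oxidation were mostly lower. Of 21 synthesis genes 8 were lower and none higher with all 6, among them Fasn, the synthase (-0.81 ± 0.15, adjusted p = 0.00152), Mlxipl, which encodes the glucose-sensing factor ChREBP (-0.82 ± 0.16), and Dgat2, which makes triglyceride (-0.90 ± 0.17). Mid1ip1, an activator of acetyl-CoA carboxylase, had 5.17, 6.43 and 6.88 FPKM in the 5 DMOG libraries, 17.0 in replicate 5 and 18.9, 19.8 and 25.01 in PBS, below PBS in all 6 (-1.44 ± 0.21). Agpat2, an acyltransferase of triglyceride synthesis, had 31.4, 36.8 and 57.3 FPKM in the 5 and 137 in replicate 5, against 97.5, 109.6 and 126 in PBS (-1.16 ± 0.25). For Agpat2 the library labelled DMOG replicate 5 was the highest of the 12. Of 38 genes of fatty acid oxidation and PPAR alpha, 10 were lower with all 6 and 19 without replicate 5, including Ppara itself (-0.67 ± 0.17), Cpt1a, the gate to mitochondrial oxidation (-0.70 ± 0.15), and the thioesterase gene Acot4 (-1.27 ± 0.22). Pex11a, a gene of peroxisome proliferation, was the 1 member that rose (0.88 ± 0.23). Of 22 genes of lipid storage and lipoprotein lipolysis, 3 were higher and 5 lower with all 6, and 4 and 7 without replicate 5. The lipid droplet genes Plin3 (-0.43 ± 0.13) and Cideb (-0.53 ± 0.12) fell, and Plin2 was lower only without replicate 5 (-0.51 ± 0.10, adjusted p = 0.00101). Another lipid droplet gene, 2310016C08Rik (Hilpda), was higher, at 11.6 to 17.4 FPKM in the 5 DMOG libraries, 5.65 in replicate 5 and 3.99 to 5.89 in PBS. Apoc3, which encodes a secreted inhibitor of lipoprotein lipase, rose (1.22 ± 0.27), and Angptl4, another such inhibitor, was called in neither fit.

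Among 24 bile acid genes 8 were lower and 1, Nr5a2, was higher (0.41 ± 0.09) with all 6, and 11 lower and 3 higher without replicate 5. Nr0b2, which encodes SHP, the corepressor that bile acids induce, fell most. It had 0.868, 2.14 and 3.61 FPKM at the lowest, median and highest of the 5 DMOG libraries and 21.2 in DMOG replicate 5, against 19.2, 27.6 and 32.3 in PBS. The 5 lay far below PBS and replicate 5 lay within it (-3.01 ± 0.45, adjusted p = 0.000792, and -3.55 ± 0.23 without replicate 5). Acox2, which shortens the side chain of bile acids (-0.96 ± 0.19), and the canalicular exporter genes Abcb11 (-0.55 ± 0.15) and Abcc2 (-0.56 ± 0.13) fell. Cyp7a1, the rate-limiting enzyme of synthesis, was called in neither fit. Of 33 genes of drug metabolism, 3 were lower with all 6 (13 with equal totals) and 13 without replicate 5, and 2 were higher in both fits. Without replicate 5, Cyp2e1 (-0.79 ± 0.24), Cyp3a11 (-0.54 ± 0.14) and Cyp1a2 (-0.52 ± 0.17) were among those lower. With all 6, Nr1i2, the gene of the xenobiotic receptor PXR, was higher (0.44 ± 0.13). Gclc (-1.09 ± 0.19, adjusted p = 0.00114) and Gclm (-0.96 ± 0.17), the subunits of the enzyme that limits glutathione synthesis, fell, as did Osgin1 (-1.49 ± 0.26), another NRF2 target, while the NRF2 targets Srxn1 (0.78 ± 0.22) and Cbr3 (0.95 ± 0.33, not called with equal totals) rose. Of 18 genes tested in the NRF2 list, 3 were higher and 3 lower with all 6, and 7 and 3 without replicate 5. Beside targets the list holds Nfe2l2, the gene of NRF2, and Keap1, the gene of its repressor. Keap1 was among those higher, at 31.6 to 42.2 FPKM in the 5 DMOG libraries, 16.7 in replicate 5 and 16.9 to 20.6 in PBS.

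In nitrogen metabolism, enzymes at the entry and the exit of the urea cycle were higher. Nags, which makes the obligate activator of carbamoyl phosphate synthase, had 84.0, 88.2 and 97.1 FPKM in the 5 DMOG libraries and 38.4 in replicate 5, against 34.3, 37.2 and 38.3 in PBS (1.07 ± 0.19, adjusted p = 0.0012). Arg1, the arginase that releases urea, had 298, 509 and 578 FPKM, 236 in replicate 5 and 150.3, 181 and 206 in PBS (1.23 ± 0.22, adjusted p = 0.00128). Both were above PBS in all 6 DMOG libraries. The mitochondrial carriers Slc25a15 (0.66 ± 0.15) and Slc25a13 (0.53 ± 0.11) rose, Cps1 was higher only without replicate 5 (0.50 ± 0.19, adjusted p = 0.0485), and Otc, Ass1 and Asl were called in neither fit. Of the 18 genes, 6 were higher and none lower with all 6, 7 and 2 without replicate 5, and 6 and 3 with all 6 and equal totals. Among 38 genes of amino acid degradation, Tat, the tyrosine aminotransferase (1.44 ± 0.29, adjusted p = 0.00275), Got1 (1.29 ± 0.23) and Cth (1.05 ± 0.26) rose and 4 fell. These shares were near the 8.26% higher and 11.7% lower of all genes tested. Without replicate 5, 3 were higher and 6 lower, no larger a share than the 17.3% and 18.1% of all genes. With equal totals and without replicate 5, 3 were higher and 13 lower. Tdo2, which opens tryptophan degradation in hepatocytes, had 5.16, 6.61 and 18.8 FPKM in the 5 DMOG libraries and 95.3 in replicate 5, against 64.8, 79.7 and 99.8 in PBS (-2.63 ± 0.49, adjusted p = 0.0017). Hal, the histidine ammonia-lyase, fell (-1.28 ± 0.35). In one-carbon metabolism the mitochondrial enzymes Shmt2 (0.82 ± 0.15) and Mthfd1l (0.84 ± 0.16) rose and the cytosolic Shmt1 fell (-0.90 ± 0.20). The glycine cleavage genes Gldc (-1.22 ± 0.28, adjusted p = 0.00566) and Amt (-0.55 ± 0.18) fell. Gldc in DMOG replicate 5, at 86.0 FPKM, was above the 56.6 to 75.7 FPKM of PBS, while the 5 others had 18.9 to 25.8.

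Immediate early genes, the first to respond to many stimuli, rose in part, 12 of 22 with all 6 and 16 without replicate 5, against 2 lower in both. Junb, a component of AP-1, had 45.9, 61.2 and 116 FPKM in the 5 DMOG libraries, 9.25 in replicate 5 and 7.90, 12.99 and 15.5 in PBS (1.91 ± 0.40, adjusted p = 0.00331). Btg2, an antiproliferative gene (1.41 ± 0.27), Dusp1, a phosphatase of MAP kinases (1.47 ± 0.25), and Fosl2 (0.98 ± 0.22) rose, and Egr1 was called in neither fit. Cdkn1a, the cell cycle inhibitor p21, had 13.1 to 17.0 FPKM in the 5 DMOG libraries, 2.97 in replicate 5 and 2.63 to 4.55 in PBS (1.65 ± 0.28, adjusted p = 0.0012). The 36 cell cycle genes had a median of 0.10, with Tk1 lower (-0.45 ± 0.10) and no member higher with all 6, and 5 were higher without replicate 5 (0 with equal totals). Of 18 genes listed for the glucocorticoid response, which include the receptor gene Nr3c1 and the enzyme gene Hsd11b1, 9 rose and 3 fell with all 6. Per1, a clock repressor, rose (1.12 ± 0.27), but Fkbp5, a chaperone used as an index of glucocorticoid action, fell (-0.89 ± 0.17, adjusted p = 0.0018), as did Tsc22d3 and Klf9. Of 17 clock genes 3 were higher and 7 lower with all 6, and 6 and 7 without replicate 5. Hlf, an output factor of the clock, had 1.35 to 2.66 FPKM in the 5 DMOG libraries, 6.67 in replicate 5 and 6.80 to 9.72 in PBS and was lower in all 6 (-1.64 ± 0.22), and Dbp (-1.04 ± 0.26), Nr1d2 (-0.64 ± 0.16) and Per2 (-0.46 ± 0.11) fell while Nfil3 rose (0.72 ± 0.13). In the unfolded protein response Atf6 (0.47 ± 0.10) and Ppp1r15a (0.82 ± 0.21) rose and Herpud1 fell (-0.95 ± 0.18).

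DMOG inhibits 2-oxoglutarate dioxygenases beyond the HIF hydroxylases, and the RNA of several of them was higher. Of 28 such genes, acting on chromatin, RNA and other substrates, 9 were higher and 2 lower with all 6, and 12 and 2 without replicate 5. Alkbh5, which removes methyl groups from adenosine in RNA, had 36.4, 39.1 and 45.7 FPKM in the 5 DMOG libraries, 18.4 in replicate 5 and 18.2, 19.3 and 20.3 in PBS (0.86 ± 0.15, adjusted p = 0.00126). Jmjd6 (0.57 ± 0.11) and the histone demethylase gene Kdm5a (0.37 ± 0.09) also rose, and Jmjd8 fell (-0.35 ± 0.08). With equal totals the counts were 6 higher and 5 lower.

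Part of the acute phase genes of hepatocytes rose, 11 of 34 with all 6 and 19 without replicate 5, with 1 lower in both. Stat3, the transducer of interleukin-6 signals, was higher in all 6, at 62.2 to 78.7 FPKM in 5 and 53.5 in replicate 5, against 40.2 to 48.8 in PBS (0.60 ± 0.09, adjusted p = 0.000792). Socs3, its feedback inhibitor (1.02 ± 0.23), Serpina3n (0.97 ± 0.22) and A2m, a protease inhibitor (2.51 ± 0.48), rose. Orm1 and Orm2, which encode plasma orosomucoids and are close paralogs, so that reads could be split between them, varied most: Orm1 had 10.1, 35.9 and 223 FPKM in the 5 DMOG libraries and 1.65 in replicate 5, against 1.76, 3.42 and 8.998 in PBS. Its highest value came from DMOG replicate 6, and Orm2 was called only without replicate 5 (3.51 ± 1.00, adjusted p = 0.0112).

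Some markers of immune cells were higher with DMOG, but only when DMOG replicate 5 was left out. None of the 17 macrophage and Kupffer cell markers was called with all 6, and 10 were higher without replicate 5 (5 with equal totals), where 17.3% of all genes tested were higher. The summed level of the list was 1292 to 1896 FPKM in the 5 DMOG libraries and 653 in replicate 5, against 837 to 1548 in PBS. Replicate 5 was the lowest of the 12, below every PBS library. C1qb, a complement gene of macrophages, had 130.2 to 178 FPKM in the 5, 58.7 in replicate 5 and 82.2 to 139 in PBS (0.60 ± 0.18 without replicate 5, adjusted p = 0.0137). Of the 25 interferon response genes none was called with all 6, and 5 were higher without replicate 5 (3 with equal totals), a share near the 17.3% of all genes tested that were higher in that fit. The list summed to 515 to 1671 FPKM in the 5 DMOG libraries and 237 in replicate 5, against 287 to 1440.1 in PBS. Irf7, an inducer of interferon genes, had 26.0 to 86.9 FPKM in the 5, 9.93 in replicate 5 and 12.4 to 40.4 in PBS, with overlap between the groups. Of 16 lymphocyte markers none was called with all 6, and 3 were higher without replicate 5, again a share near that of all genes. With equal totals and without replicate 5, 1 was higher and 1 lower. Lymphocyte markers summed to 66.7 to 127 FPKM in the 5 DMOG libraries, 32.9 in replicate 5 and 37.9 to 64.0 in PBS. Much of that sum was 1 gene, Gzma, at 21.3 to 69.1, 7.36 and 8.56 to 23.6 FPKM in the same order, with overlap between the groups. The part of these cells in the acute phase genes, or in the position of replicate 5, was not tested. The levels of endothelial (272 to 357, 288 and 280.1 to 329.6 FPKM) and hepatocyte markers (25977 to 42349, 44062 and 34394 to 43154 FPKM), in the same order of libraries, overlapped between DMOG and PBS. Retina markers summed to 1.15 to 2.73 FPKM with DMOG and 1.31 to 2.196 with PBS.

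**Figure D4:**
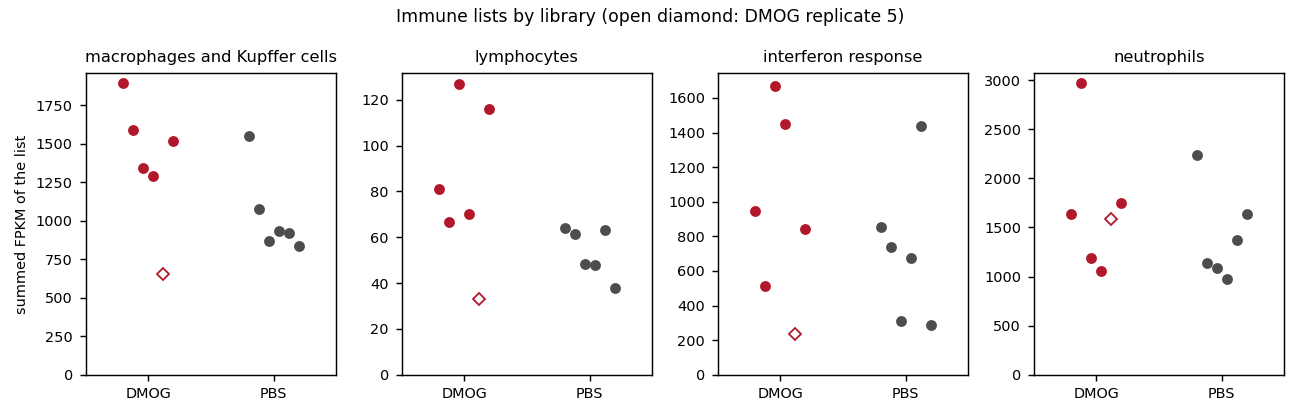
Summed FPKM of 4 marker lists in each of the 6 DMOG and 6 PBS libraries, on axes from 0, with DMOG replicate 5 as an open diamond. For macrophages the diamond is the lowest point of the panel at 653 FPKM. Of the PBS points only the highest, at 1548 FPKM, lies among the other DMOG points, and the rest lie below them.

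Genes outside the lists rose and fell too. They were picked by large changes with no overlap between the 5 other DMOG libraries and PBS, so that separation was a condition of the choice. O3far1 (RefSeq symbol Ffar4) encodes the long-chain fatty acid receptor GPR120. It had 44.0, 49.7 and 65.7 FPKM in the 5 DMOG libraries and 1.49 in replicate 5, against 0.769, 1.33 and 2.13 in PBS (4.09 ± 0.62, adjusted p = 0.000792). Fgf23, the phosphate-regulating hormone of bone, had 1.74, 3.31 and 8.20 FPKM in the 5 DMOG libraries and was listed at 0 in replicate 5, against 0 to 0.0438 FPKM in PBS, where 3 libraries were listed at 0 (2.53 ± 0.44, adjusted p = 0.00127). For both, the 5 libraries lay above every PBS library and replicate 5 lay within the PBS range. Crybb3, a crystallin gene (2.27 ± 0.47), Rnf186, a ubiquitin ligase gene (2.02 ± 0.39), and Tnnc1, which encodes cardiac and slow skeletal troponin C (2.06 ± 0.36), rose. Among the genes with the largest falls were Sgk2, a kinase related to SGK1, with 0.176, 0.447 and 0.694 FPKM in the 5 DMOG libraries, 5.79 in replicate 5 and 4.49, 5.27 and 7.95 in PBS (-2.22 ± 0.37, adjusted p = 0.00108), and Chka, a choline kinase that begins phosphatidylcholine synthesis, with 3.30 to 5.29, 19.1 and 14.1 to 22.9 FPKM (-1.69 ± 0.28). Arsg, a lysosomal sulfatase gene (-1.66 ± 0.30), Bex2 (-1.99 ± 0.46) and the keratin genes Krt20 (-1.70 ± 0.28) and Krt23 (-2.13 ± 0.52) fell. For each of these the 5 DMOG libraries lay below all 6 PBS libraries, as the choice required, and replicate 5, which took no part in it, did not.

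DMOG and roxadustat both block HIF prolyl hydroxylases but differ in structure: roxadustat is an isoquinoline carbonyl-glycine made to compete with 2-oxoglutarate at HIF prolyl hydroxylases, whereas DMOG is an ester that yields N-oxalylglycine, a close analog of 2-oxoglutarate itself. Their effects in liver RNA were compared directly, as DMOG minus roxadustat. The doses and times are not given, so that the responses are not matched. With all 6 DMOG libraries 379 of 12657 genes (2.99%) differed, 144 higher with DMOG (1.14%) and 235 lower (1.86%), and 2267 had an unadjusted p under 0.05. Without DMOG replicate 5, 2052 genes (16.2%) differed, 905 higher (7.15%) and 1147 lower (9.06%). Leaving out in turn each of the other DMOG libraries or any roxadustat library, with replicate 5 kept, gave 104 to 264 genes. All pairs below were adjusted over the 12657 genes. Since sexes as read from Xist and Y-linked genes differed between the groups, a term for them was also fitted. With it 78 genes were called with all 6, and 1197 of the 2052 were again called without replicate 5.

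Several HIF targets were higher with DMOG than with roxadustat. Epo had 17.2, 22.0 and 24.6 FPKM in the 5 DMOG libraries, against 2.12, 5.22 and 5.65 with roxadustat, a log2 difference of 2.13 ± 0.19 without replicate 5 (adjusted p = 2.05e-06). With replicate 5, listed at 0, it was 1.22 and was not called (adjusted p = 0.384). Ero1l had 88.7 to 151 FPKM in the 5 DMOG libraries and 31.1 to 41.8 with roxadustat (1.68 ± 0.12), and Egln3 had 46.4 to 72.5 and 17.0 to 20.4 FPKM (1.58 ± 0.13), with no overlap for either. Ankrd37 (1.69 ± 0.18), P4ha2 (1.53 ± 0.14), Gpi1 (1.33 ± 0.12) and Vegfa (0.59 ± 0.10) differed in the same direction when replicate 5 was left out, and none of these was called with all 6.

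Other HIF targets did not separate the compounds. Without replicate 5, Pdk1 had 26.1 to 47.4 FPKM in the 5 DMOG libraries and 26.0 to 35.6 with roxadustat, a log2 difference of 0.10 ± 0.12 with a 95% interval of -0.14 to 0.35. Slc2a1 (14.8 to 22.0 and 15.4 to 23.9 FPKM) had an interval of -0.30 to 0.24, Tpi1 of -0.20 to 0.23, Cdkn1a of -0.29 to 0.16 and Adm2 of -0.41 to 0.22. The intervals of Pfkl and Igfbp1 were -0.02 to 0.38 and -0.69 to 0.68. The adjusted p of these 7 genes was between 0.213 and 0.999, which does not show that the compounds act alike on them. Slc16a3, the lactate exporter gene, differed the other way, with 6.66 to 12.7 FPKM in the 5 DMOG libraries and 10.7 to 27.4 with roxadustat (-0.86 ± 0.25, adjusted p = 0.0247). These ranges overlapped, and both lay above the 1.63 to 4.45 FPKM of PBS.

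Some metabolic genes differed even with replicate 5 kept, in the fit with no term for sex. With that term and all 6 libraries 78 genes were called in place of 379, and whether those named here are among them is not shown. Without replicate 5, the genes named in this paragraph as different were called both with and without that term. Nr0b2 had 0.868 to 3.61 FPKM in the 5 DMOG libraries and 21.2 in replicate 5, against 25.2 to 39.4 with roxadustat (-3.15 with all 6, adjusted p = 0.00161). Tdo2 had 5.16 to 18.8 and 95.3 FPKM with DMOG, against 45.6 to 89.6 with roxadustat (-2.39, adjusted p = 0.0169). Agpat2 (-1.35, adjusted p = 0.00935) and Osgin1 (-1.39) were lower with DMOG, and Nags (1.00, adjusted p = 0.0101), Arg1 (1.09), Got1 (1.17) and Tat (1.21) were higher. For Nags the 5 DMOG libraries had 84.0 to 97.1 FPKM and roxadustat 26.2 to 48.8, a range that includes all of PBS. Slc17a4, an organic anion transporter gene (-1.63), Bmf, which encodes a proapoptotic BH3 protein (-1.61), and Lmcd1 (-1.76) were lower with DMOG, with adjusted p of 0.000453, 0.000453 and 0.000779. Of the 240 genes higher than PBS by at least 1 on the log2 scale without replicate 5, 135 were also higher than with roxadustat and 1 was lower, and of the 164 lower by as much, 123 were also lower than with roxadustat and none was higher. These counts share their DMOG libraries with the choice of the genes and are given as a description.

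**Figure D5:**
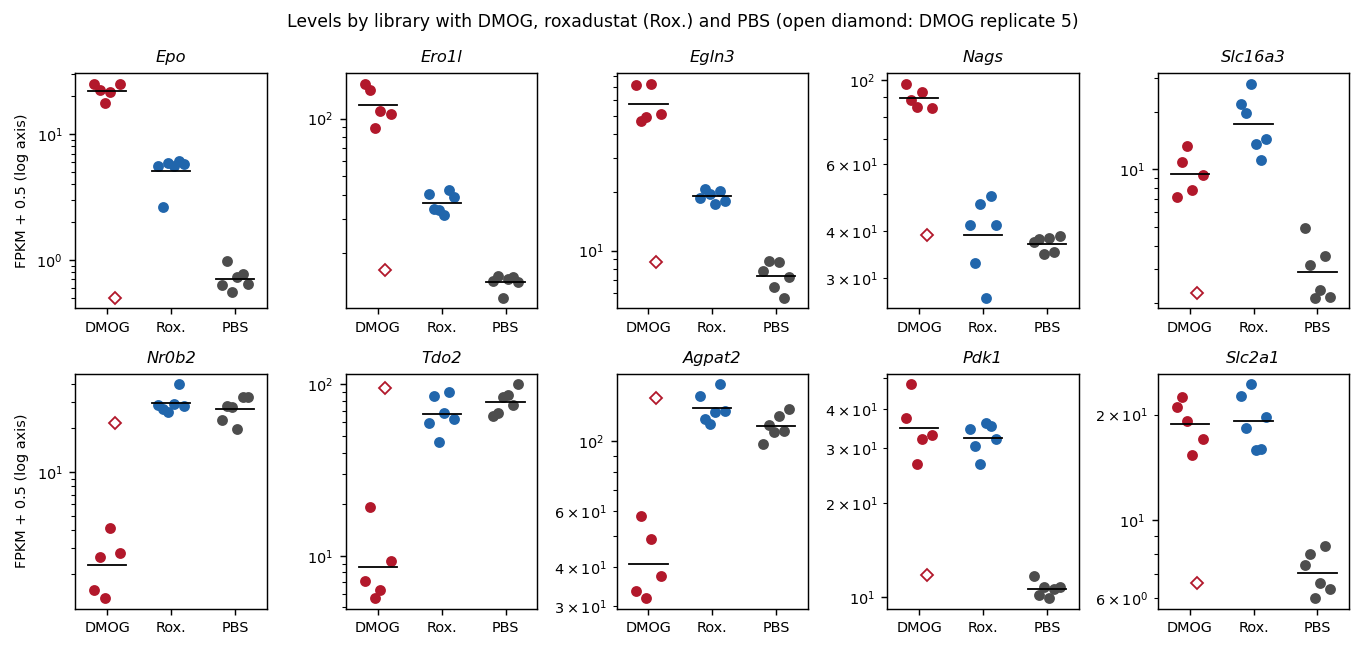
Levels of 10 genes in the 6 DMOG, 6 roxadustat and 6 PBS libraries, as FPKM + 0.5 on a log axis, with DMOG replicate 5 as an open diamond and lines at geometric means (for DMOG without that library). Epo, Ero1l and Egln3 step down from DMOG to roxadustat to PBS, Nags is raised and Nr0b2, Tdo2 and Agpat2 are low in the 5 filled DMOG points, Slc16a3 is highest with roxadustat, and Pdk1 and Slc2a1 overlap between the compounds.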

How the data were processed

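RNA was extracted with RNeasy and made into TruSeq Stranded Total RNA libraries after Ribo-Zero Gold depletion, per the labels' protocols. The deposited values are FPKM per gene, made by the authors. The submitters' processing notes name the mm9 build, Cuffdiff 2.2.1, bcl2fastq 1.8.3 and version 2 of TopHat2, without their roles. A row holding the grand total was left out. The table labelled retina was used for all results, since its genes are those of liver.

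From these values, log2(FPKM + 0.5) was fitted with limma 3.58.1 in R 4.3.3 (statmod 1.5.0) to 3 treatment means over 18 libraries, with a mean trend in the prior, for the 12657 of 22558 genes that averaged 0.5 FPKM or more. P-values were adjusted by Benjamini and Hochberg over all of these genes, with 0.05 as the threshold. Each fit was repeated without DMOG replicate 5, an alternative chosen after earlier results were seen, and was tested on simulated data. Outliers, list counts and figures used Python 3.11.15. Alternatives covered pseudocounts, filters, scaling, weights, a replicate block, a term for sex and leaving out each library. Members, gene lists and tests were chosen with earlier results of these data known. Genes named were those with the smallest adjusted p in each list and the largest changes that separated the groups, and members named as called in neither fit were picked from the lists after their values were seen. Promoter sequences are from RefSeq (GRCm38.p6). Some genes are not reported here.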

Additional observations from a re-analysis of the deposited data

Results flagged for a closer look

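In 48 of 318 groups of 6 libraries (DMOG and PBS, 159 genes named in the text), 1 library stood farther from the others than Dixon's criterion allows (chance flags about 1 group in 20 where groups are not chosen on their values). These genes were named for small adjusted p and for separation of the other 5 DMOG libraries from PBS, so that rate does not apply to them and the tally is a description. DMOG replicate 5 accounted for 35 of these, other DMOG libraries for 5 and PBS libraries for 8. DMOG replicate 5 was far below the other DMOG libraries for Epo at 0, Vegfa at 16.1, Higd1a at 14.1, Kdm3a at 5.72, P4ha1 at 5.36, Pgam1 at 85.3 and Gys1 at 1.29 FPKM. It was likewise far below them for Nags at 38.4, Cdkn1a at 2.97, Atf6 at 7.87, Alkbh5 at 18.4, Kdm5a at 5.69 and O3far1 at 1.49 FPKM. The same library was far above the other DMOG libraries for Fdft1 at 38.1, Srebf2 at 12.1, Mid1ip1 at 17, Agpat2 at 137, Acot4 at 13.9, Nr0b2 at 21.2 and Acox2 at 64.4 FPKM. It was far above them for Gclc at 73.7, Osgin1 at 72, Gclm at 86.1, Tdo2 at 95.3, Hal at 30.6, Gldc at 86, Fkbp5 at 29.3 and Hlf at 6.67 FPKM. It stood apart in that direction also for Herpud1 at 75.5, Krt20 at 8.9, Sgk2 at 5.79, Krt23 at 8.51, Bex2 at 21.7, Chka at 19.1 and Arsg at 19.6 FPKM. Among the other DMOG libraries, Hif1an was highest in DMOG replicate 6 at 6.89 FPKM, Ndrg1 was highest in DMOG replicate 2 at 61.1 FPKM, Plod2 was highest in DMOG replicate 2 at 4.29 FPKM, Orm2 was highest in DMOG replicate 6 at 170 FPKM, Orm1 was highest in DMOG replicate 6 at 223 FPKM. Among the PBS libraries, the highest value stood apart for Pfkl at 25.6 FPKM in replicate 1, Hamp at 3.13 FPKM in replicate 4, Nfil3 at 12.7 FPKM in replicate 6, Sgk2 at 7.95 FPKM in replicate 5, Bex2 at 26.5 FPKM in replicate 3. Among the PBS libraries, the lowest value stood apart for Ero1l at 11.1 FPKM in replicate 3, Apln at 0.229 FPKM in replicate 2 and Cox5a at 168 FPKM in replicate 3.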

How the results depend on the processing

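Counts of genes called depended most on DMOG replicate 5. For DMOG against PBS, leaving out 1 library at a time gave 1809 to 4489 genes, the highest without DMOG replicate 5. A mean of at least 5 FPKM left fewer genes to test and gave 1655, and array weights gave 4240. For DMOG against roxadustat, leaving out 1 library gave 104 to 2052 genes, no filter 232, array weights 1692 and a term for sex 78. Without DMOG replicate 5, a mean of at least 5 FPKM gave 2842 genes against PBS and 1327 against roxadustat, and a term for sex 1237 against roxadustat. Over all lists, 270 members were called, 410 without DMOG replicate 5 and 211 to 410 over libraries left out. The median position of DMOG replicate 5 over all called genes was -0.07 as deposited and 0.088 with equal totals. The cause of these shifts was not tested.

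Same-numbered DMOG and PBS libraries deviated together with correlations of -0.33 to 0.21, and 1 of 6 DMOG libraries matched its own number best. The DMOG mean in that check includes DMOG replicate 5, and roxadustat was not part of it. Scale factors from median ratios were alike by number, in the order DMOG, PBS and roxadustat. They were 1.037, 1.033 and 1.033 for replicate 2 and 0.9675, 0.9819 and 0.9691 for replicate 3. They were less alike for replicate 5, at 0.997, 0.9861 and 0.9785. What the replicate numbers stand for was not tested. With a replicate block, 2843 genes were called against PBS, 396 against roxadustat and 290 list members, and 4529 and 2066 genes without DMOG replicate 5. Of the 159 genes named, 138 were called with all 6 libraries, 131 to 156 over libraries left out, and none of these alternatives reversed a DMOG against PBS direction among them. Depth is unknown from FPKM, so no counting error can be given for low genes such as Epo and Fgf23.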

Other observations

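Of 20 targets of p53 and genes of growth arrest tested, 4 were higher and 1 lower in DMOG than in PBS with all 6 DMOG libraries, and 9 and 2 without DMOG replicate 5. Of 23 coagulation genes, 3 were higher and 2 lower, against 2 and 7 with equal FPKM totals, so the balance of that list turned with the scaling. Of all genes tested 8.26% were higher and 11.7% lower with all 6, and 17.3% and 18.1% without replicate 5. Among 20 apolipoprotein genes 2 were higher and 2 lower with all 6, and 3 and 3 without replicate 5. Among 14 heat shock genes 2 were higher and 3 lower with all 6, and 3 and 3 without replicate 5. Among 22 genes of ribosome biogenesis 1 were higher and 3 lower with all 6, and 1 and 3 without replicate 5.

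Among 20 pericentral hepatocyte genes 2 were higher and 2 lower with all 6, and 4 and 6 without replicate 5. Among 20 periportal genes 2 were higher and 1 lower with all 6, and 4 and 1 without replicate 5. With equal totals 7 pericentral genes were lower with all 6. Neutrophil markers summed to 1052 to 2970.3 FPKM in the other 5 DMOG libraries and 1586 in replicate 5, against 979 to 2238 in PBS, with overlap.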
